A study of Mus musculus with 31 samples.

Results

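The clustered histone genes were followed in RNA-seq data from cells sorted from the mouse pancreas at postnatal day 2. Members were the genes whose symbol begins with Hist1h, Hist2h, Hist3h or Hist4h, which gave 70 of the 38283 genes listed in each table. By class there were 6 H1, 20 H2A, 19 H2B, 12 H3 and 13 H4 genes. By symbol 56 are Hist1 genes, all on chromosome 13, of which 24 lie at chr13:21715763-22043676 and 31 at chr13:23531050-23934851, while the processed pseudogene Hist1h2al lies apart at chr13:51202727-51203065 (GENCODE M21, GRCm38). The Hist2 cluster on chromosome 3 held 10 members, the Hist3 cluster on chromosome 11 held 3, and Hist4h4 lies alone on chromosome 6. In the reference annotation 66 are protein coding, 3 are pseudogenes and Hist2h2bb is a long non-coding RNA, so the symbol does not always name a gene that makes histone.

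All animals were C57BL/6 and carried a Cre recombinase from the Nkx3.2 locus, which is active in pancreatic mesenchyme, and cells were sorted by YFP. YFP-positive cells are called mesenchymal and YFP-negative cells non-mesenchymal, as in the labels. In the Igf2 model, controls were Igf2+/+; Nkx3.2Cre/+ and mutants Igf2+/fl; Nkx3.2Cre/+, and only non-mesenchymal cells were analysed here (4 control and 3 mutant libraries). In the H19DMD model, controls were H19DMD+/+; Nkx3.2+/Cre and mutants H19DMDfl/+; Nkx3.2+/Cre, with 3 control and 4 mutant libraries of each fraction. H19DMD is the imprinting control region upstream of H19, and the series describes its deletion as overexpression of the growth factor Igf2. In both models the recombination is limited to cells in which Nkx3.2-Cre was active, so the non-mesenchymal libraries come from cells sorted as not carrying the marker. Values are FPKM, fragments scaled by transcript length and by library size. The libraries of a group were taken as replicates; the sources used here do not say whether each came from a separate animal, so p-values measure the spread between these samples.

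Histones package DNA: H2A, H2B, H3 and H4 form the core of the nucleosome, and H1 binds the linker DNA between nucleosomes. The clustered genes are replication-dependent. They are transcribed mainly in S phase, when new chromatin needs histones, and most of their mRNAs end in a conserved stem-loop bound by Slbp in place of a poly(A) tail. Replacement histones such as H3f3b and H2afz are encoded elsewhere, are made throughout the cell cycle and have polyadenylated mRNAs. Some clustered genes also make a longer, polyadenylated transcript that runs past the stem-loop, as described in differentiating cells.

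The stem-loop is shown first because it is the feature that sets these mRNAs apart from others. Each line gives bases read from the annotated transcript (GENCODE M21, GRCm38), 5′ to 3′, with the stem and loop in capitals.
Hist1h4d: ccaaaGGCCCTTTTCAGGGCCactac
Hist1h4c: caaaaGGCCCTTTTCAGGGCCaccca
Hist1h4b: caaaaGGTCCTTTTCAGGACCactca
Hist1h1e: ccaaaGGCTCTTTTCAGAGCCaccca
Hist1h1c: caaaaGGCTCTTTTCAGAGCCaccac
Hist1h2bm: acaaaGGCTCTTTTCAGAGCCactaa
Hist1h2bb: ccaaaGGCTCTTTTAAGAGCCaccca
Hist2h2ac: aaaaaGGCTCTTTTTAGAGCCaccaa
Hist2h3c1: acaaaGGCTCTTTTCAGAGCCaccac
Hist3h2ba: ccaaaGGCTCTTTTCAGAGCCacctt
A match was found in the annotated transcript of 46 of the 70 members, 21 to 58 nt after the stop codon with a median of 31. The commonest form, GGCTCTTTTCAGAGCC, was carried by members of H1 (3), H2A (10), H2B (8) and H3 (5) and by no H4 gene. The 12 H4 genes with a match had a different stem, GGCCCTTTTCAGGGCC in 7 of them. The annotated transcript stopped within 100 nt of the stem-loop in 23 members and ran further past it in 23. Hist1h4d, Hist1h1e, Hist1h1c, Hist2h3c1 and Hist3h2ba belong to the second set, while Hist1h2bm, Hist1h2bb and Hist2h2ac belong to the first. The FPKM tables list a shorter span for some of them: 393 nt for Hist1h4d, whose annotated transcript has 1138 nt, and 748 nt for Hist1h1e, whose annotated transcript has 1930 nt. These listed spans end 25 and 27 nt past the stem-loop. In the other 24 members no match was found in the annotated transcript, which for Hist1h2ak and Hist1h2bl holds only the coding sequence.

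The H4 genes show how similar members are in sequence. All 13 have a coding sequence of 312 nt, and Hist1h4d, the highest member in these data, differs from the other 12 at 18 to 40 positions. Hist1h4m and Hist1h4n have the same coding sequence. The first 90 coding bases of 4 of them are given below, with the bases that differ from Hist1h4d in capitals.
Hist1h4d: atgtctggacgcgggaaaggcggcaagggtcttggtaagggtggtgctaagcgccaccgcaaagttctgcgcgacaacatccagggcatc
Hist1h4c: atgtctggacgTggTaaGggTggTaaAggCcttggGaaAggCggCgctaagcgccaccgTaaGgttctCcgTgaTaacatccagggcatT
Hist2h4: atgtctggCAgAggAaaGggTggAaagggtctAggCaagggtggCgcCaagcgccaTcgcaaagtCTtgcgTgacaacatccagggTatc
Hist4h4: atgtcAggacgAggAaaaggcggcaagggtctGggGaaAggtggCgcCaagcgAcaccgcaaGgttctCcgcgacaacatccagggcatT
Over these 90 bases Hist1h4c differed at 17 positions, Hist2h4 at 16 and Hist4h4 at 12. Reads were 50 bases long, and 32.3% of the 50-base windows within the listed span of Hist1h4d occur in another member, or 10.2% over its longer annotated transcript. Over annotated transcripts, the median share of a class was 73.3% in H2A, 57.2% in H3, 40.1% in H2B, 39.5% in H4 and 1.11% in H1. The 16 members with at least 80% of windows shared had a median level of 0.0682 FPKM over the 21 libraries, and 5 of them (Hist1h2aj, Hist1h2bq, Hist1h4n, Hist2h2aa1 and Hist2h2aa2) were listed at 0 in every library. The median was 0.982 FPKM for the 38 members between 20 and 80%, and 2.92 FPKM for the 16 members below 20%. How reads that match several members were assigned is not given in the sources used here, so levels of single members that share windows are uncertain in all 5 classes, H4 included.

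Upstream sequences were assigned by symbol to 62 of the 70 members (RefSeq, GRCm38.p6, 250 bases before to 50 after the start). Hist1h2ap was given the same window as Hist1h2ao, near Hist1h2ao, so that window enters the counts for both. The windows given to Hist2h2aa1 and Hist2h2aa2 lie near each other's annotated gene. The counts below include these windows. The motifs TATAAA (bound by the general transcription machinery), CCAAT (bound by the factor NF-Y) and the octamer ATTTGCAT were searched on both strands, and they do not overlap one another in the sequences shown. TATAAA occurred in 56.5% of member promoters and in 13.6% of all 32851 promoters of the same length. CCAAT occurred in 85.5% of members and 37.4% of all promoters, and its presence followed class: every H1 (6), H2A (18), H2B (16) and H3 (10) promoter held it, against 3 of 12 H4 promoters. The octamer, the letters recognised by the Oct-1 factor (Pou2f1) at H2B promoters, occurred in 21.0% of members and 1.74% of all promoters. It was found in 7 of 18 H2A and 6 of 16 H2B promoters and in none of the other classes. Octamers with 10 bases on either side are shown on the strand that reads ATTTGCAT, since H2A and H2B genes often lie head to head and share one.
Hist1h2ae: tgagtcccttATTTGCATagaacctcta
Hist1h2bg: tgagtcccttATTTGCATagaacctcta
Hist1h2ah: atttcactttATTTGCATacgaagttct
Hist1h2bk: atttcactttATTTGCATacgaagttct
Hist1h2bm: tctcgtctctATTTGCATaacagcgtgt
Hist2h2ac: ttgagacctaATTTGCATaaggcgttca
Hist1h2ae and Hist1h2bg show the same 28 bases, as do Hist1h2ah and Hist1h2bk. The 250 bases before the start of 3 of the highest members follow, with the motifs in capitals: Hist1h4d at chr13:23581318-23581567 (plus strand), Hist1h1e at chr13:23622559-23622808 (minus strand) and Hist1h2bm at chr13:21721794-21722043 (plus strand).
Hist1h4d: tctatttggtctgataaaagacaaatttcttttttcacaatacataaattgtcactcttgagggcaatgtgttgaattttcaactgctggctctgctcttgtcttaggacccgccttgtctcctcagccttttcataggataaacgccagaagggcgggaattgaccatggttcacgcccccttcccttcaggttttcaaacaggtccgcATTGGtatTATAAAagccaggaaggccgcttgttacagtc
Hist1h1e: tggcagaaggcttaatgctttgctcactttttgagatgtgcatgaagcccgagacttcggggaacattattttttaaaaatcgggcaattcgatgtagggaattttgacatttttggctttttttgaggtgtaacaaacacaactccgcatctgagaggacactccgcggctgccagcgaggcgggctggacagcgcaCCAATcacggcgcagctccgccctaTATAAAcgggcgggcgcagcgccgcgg
Hist1h2bm: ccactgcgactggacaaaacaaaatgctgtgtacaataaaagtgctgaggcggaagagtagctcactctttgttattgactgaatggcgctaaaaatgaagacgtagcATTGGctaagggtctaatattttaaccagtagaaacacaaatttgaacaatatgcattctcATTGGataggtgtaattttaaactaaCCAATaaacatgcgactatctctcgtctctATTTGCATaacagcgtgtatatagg
Hist1h4d is one of the 3 H4 members with CCAAT, here on the other strand and next to TATAAA. Hist1h2bm has 3 CCAAT matches and an octamer but no TATAAA in this window.

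The libraries had 17476 to 20918 genes above 0, and their absolute depth is unknown, as FPKM holds no counts. Igf2 was 3648 to 4024 FPKM in the mesenchymal controls of the H19DMD model and 6162 to 7923 in the mutants. H19 was 2437 to 2454 in those controls and 565 to 835 in the mutants, without overlap for either gene. In non-mesenchymal cells of the Igf2 model, Igf2 was 71.5 to 143.9 FPKM in controls and 25.0 to 146.5 in mutants, which overlap. In non-mesenchymal cells of the H19DMD model it was 45.2 to 53.2 FPKM in controls (mean 48.2) and 45.4 to 156.7 in mutants (mean 108), which also overlap, and its part in the histone values of that fraction was not tested. The fractions matched their labels: all 9 mesenchymal marker genes were higher in the mesenchymal fraction, and all 7 acinar and all 7 endocrine markers tested were lower, in controls and in mutants.

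Mesenchymal mutant 4 of the H19DMD model had the fewest histone members listed above 0. It had 14 members above 0, where the other mesenchymal libraries had 18 to 29, although its 17518 genes above 0 lay within the range of the others (17476 to 18511). Its H2B sum was 2.69 FPKM and its H3 sum 0, while Hist1h4d was 50.2 FPKM. Hist1h4d made up 56.2% of the summed level in this library. Without this library 6 members were called between fractions in mutants, against 8 with it. The log2 fold change of Hist1h4d against controls was 0.99 without it and 0.94 with it.

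The clustered histone genes were dominated by a few members. The 5 highest members of each group held 54.8 to 68.8% of its summed FPKM of all 70. In the Igf2 table these were Hist1h4d (mean 269 FPKM over 7 libraries), the linker histone genes Hist1h1e (124) and Hist1h1b (67.3), Hist1h2ak (119) and Hist1h2bm (63.5). In the H19DMD table the highest by the mean over all 14 libraries were Hist1h4d (71.5 FPKM), Hist1h1e (29.6), Hist1h1b (18.01), Hist1h2bm (14.2) and the linker histone gene Hist1h1c (12.8). In the mesenchymal controls alone, Hist1h2ak and Hist1h1a stood in place of Hist1h2bm and Hist1h1c. In the non-mesenchymal controls alone, Hist1h2bl stood in place of Hist1h1c. A mean of at least 1 FPKM was reached by 45 and 42 members in control and mutant libraries of the Igf2 model. In the H19DMD model it was reached by 35 and 28 members in the non-mesenchymal controls and mutants, and by 19 in each mesenchymal group. In mesenchymal controls 42 members were listed at 0 in all 3 libraries. Without counts, a listed 0 sets no upper limit on the level.

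**Figure D1:**
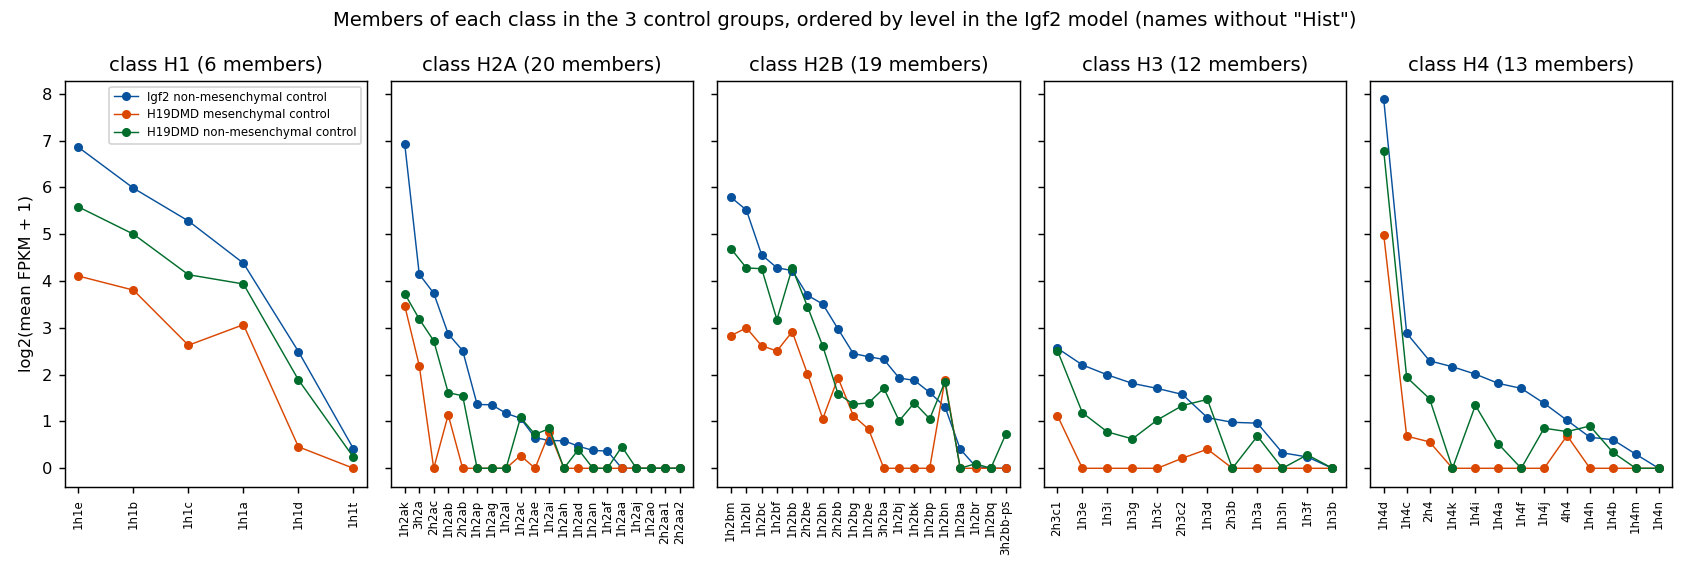
Mean FPKM of each member, as log2(mean FPKM + 1), in the 3 control groups, with 1 panel per histone class and members ordered by their level in the Igf2 model; lines join members of a group and have no other meaning. Hist1h4d stands alone at the top of H4 and Hist1h2ak at the top of H2A in the Igf2 model, while H2B falls off gradually and no H3 member is high.

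Summed over all members, the levels were 685.6 to 1288 FPKM in the 4 controls and 1006 to 1110 in the 3 mutants of the Igf2 model. In the H19DMD model the non-mesenchymal controls had 237, 428 and 513 FPKM and the mesenchymal controls 101, 139 and 159. The mutants had 220, 263, 338 and 496 FPKM in the non-mesenchymal fraction and 89.3, 126, 150 and 255 in the mesenchymal one. The 2 models are in separate tables, so levels of the Igf2 and H19DMD models stand side by side without a test. H1, H2B and H4 each held 20.4 to 41.1% of the summed level in every group, H2A held 8.10 to 18.7%, and H3 only 0.852 to 3.16%. These shares depend on the transcript length by which each value was divided. The tables list a position for each gene and no length.

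**Figure D2:**
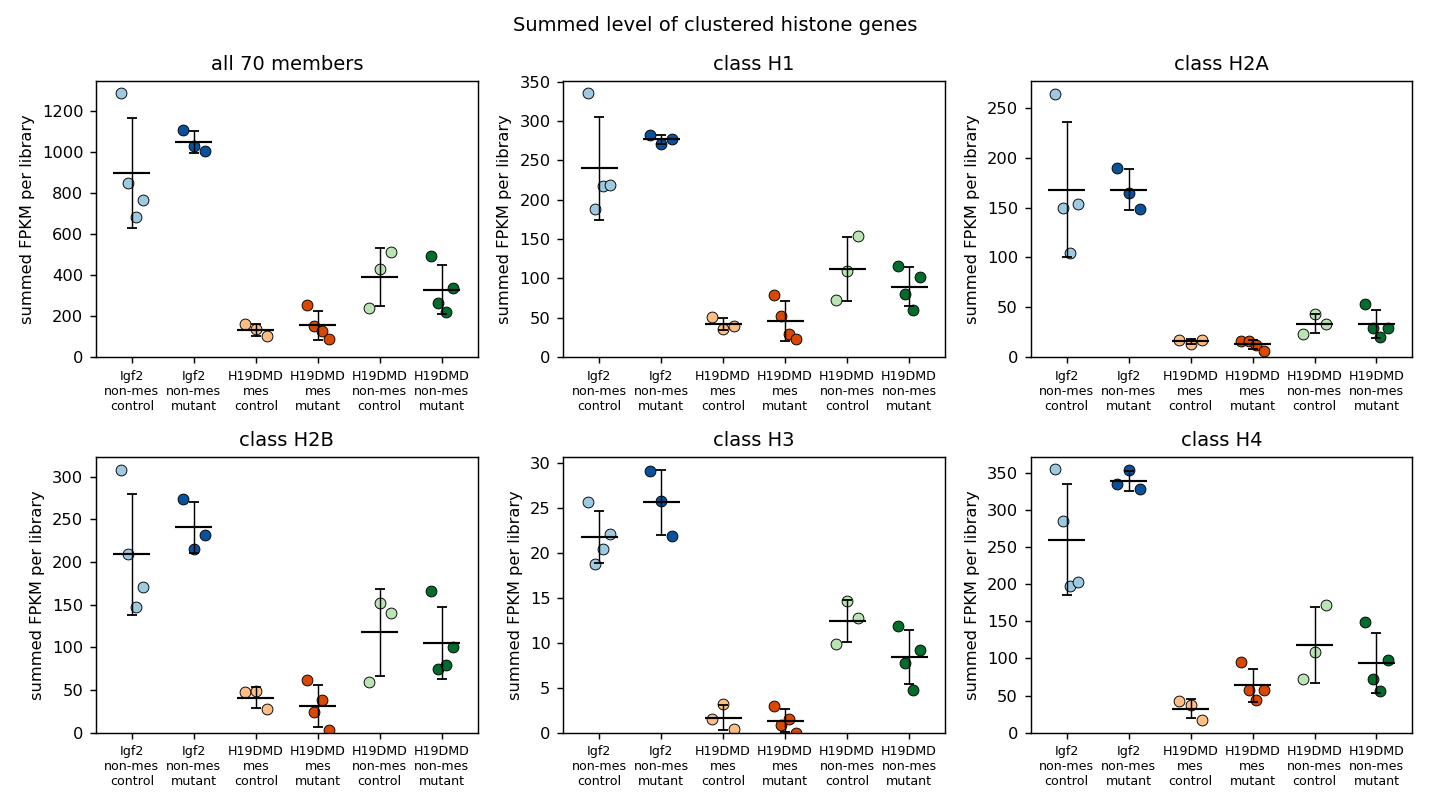
Summed FPKM of all 70 members and of each class, 1 point per library, with the group mean (line) and SD (bar) for the 6 groups. The H2A, H2B and H3 sums of the mesenchymal groups lie below those of the non-mesenchymal groups of the same genotype. The H4 sums of mesenchymal controls and mutants do not overlap, while Hist1h4d, which holds most of the H4 sum, does.

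Among the linker histones, Hist1h1e led in all 6 groups and Hist1h1b or Hist1h1c came next. Hist1h1e was 94.5 to 147 FPKM in the Igf2 controls and 119 to 149 in the mutants. Hist1h1d was lower throughout, with 2.04 to 7.39 FPKM in Igf2 controls and 0.257 to 0.511 in mesenchymal controls. Hist1h1a ranged from 2.93 FPKM in a mesenchymal mutant to 32.1 in an Igf2 mutant. Hist1h1t, the testis form of H1, was listed at 0 in 15 of the 21 libraries and reached at most 1.27 FPKM.

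In H2A, Hist1h2ak held 71.4% of the class in Igf2 controls, with 66.1, 101, 107 and 206 FPKM, and 70.03% in Igf2 mutants. In the H19DMD model it held 36.9% in non-mesenchymal controls, with 8.25, 11.8 and 16.7 FPKM. The mean of Hist1h2ak was thus 120 FPKM in one set of non-mesenchymal controls and 12.3 in the other. The H2A sum was 168 and 33.2 FPKM in the same 2 groups, which come from separate tables. The sums of the other classes differed less: H1 was 239.7 and 112 FPKM, H2B 209 and 117, H3 21.8 and 12.4, and H4 259.7 and 118. Hist3h2a and Hist2h2ac followed in H2A with 16.7 and 12.4 FPKM in Igf2 controls. H2B was spread over more genes, and its leading member, Hist1h2bm or Hist1h2bl, held 16.4 to 31.6% of the class. Hist1h2bm shares its listed position, 13:21721442-21722478, with Hist1h2aj on the opposite strand, and the use of strand in counting is not given in the sources used here. Likewise Hist2h3c1 shares its listed position, 3:96243550-96248509, with Hist2h2aa1, and Hist2h2bb shares 3:96267075-96279001 with Hist2h3b. All 50-base windows of Hist2h3c1 (100%) also occur in another gene, so its level is uncertain. In H3 the leading member was Hist2h3c1 in all 6 groups, at 0.841 to 4.91 FPKM. Hist4h4, the lone H4 gene of chromosome 6, stayed between 0.271 and 2.54 FPKM.

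Hist1h4d held 90.1 to 94.7% of the H4 sum in every group. It was 180.4, 180.8, 259.8 and 315 FPKM in the Igf2 controls and 306, 314 and 328 in the Igf2 mutants. The H19DMD non-mesenchymal controls had 65.1, 97.9 and 163 FPKM and the mutants 52.1, 67.3, 92.7 and 136. The mesenchymal controls had 17.1, 34.7 and 40.3 FPKM and the mutants 38.6, 50.2, 57.0 and 89.6. The order of the H19DMD means was therefore non-mesenchymal control, non-mesenchymal mutant, mesenchymal mutant and mesenchymal control, with overlap between each pair of neighbours. The next H4 member never exceeded a mean of 6.39 FPKM.

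**Figure D3:**
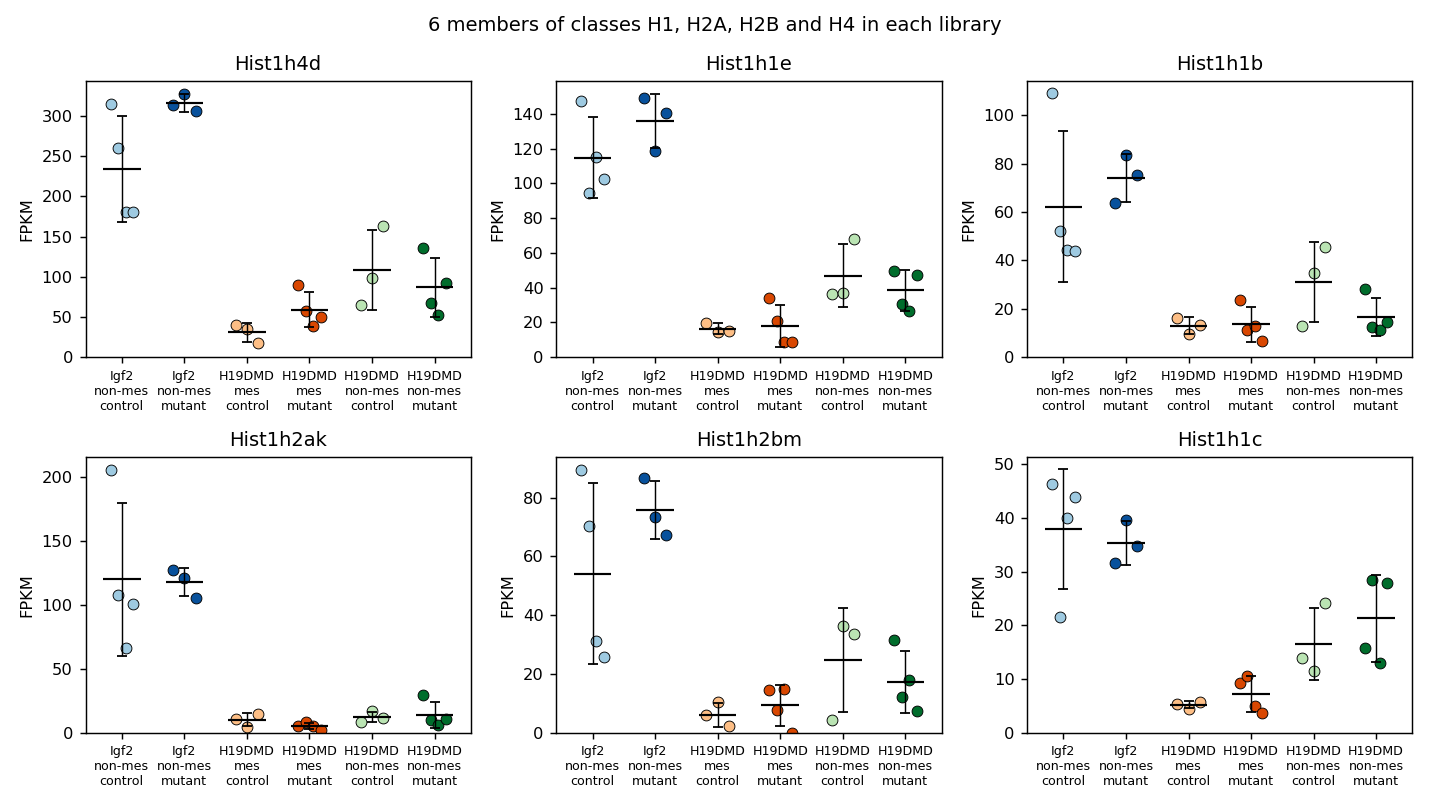
FPKM of Hist1h4d, Hist1h1e, Hist1h1b, Hist1h2ak, Hist1h2bm and Hist1h1c in each library, with the group mean (line) and SD (bar) for the 6 groups. Hist1h2ak and the other 5 genes are highest in the Igf2 model, which was normalised apart, and within the H19DMD controls the mesenchymal libraries lie below the non-mesenchymal ones for Hist1h4d, Hist1h1e and Hist1h1c.

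The comparison of fractions in the H19DMD model asked how histone gene expression differs between mesenchymal and other pancreatic cells of the same genotype. In controls, 9 of the 26 members tested were lower in the mesenchymal fraction at an adjusted p under 0.05 and none was higher, in limma's moderated test with Benjamini-Hochberg adjustment over all genes. Of all 16732 genes tested, 10.3% were lower and 12.4% higher by the same rule, 22.6% in all. At an unadjusted p under 0.05 there were 14 of 26 members, beside 34.2% of all genes. The 9 were Hist1h1c, Hist1h1d, Hist1h1e, Hist1h2bc, Hist1h4d, Hist2h2ac, Hist2h2be, Hist2h3c1 and Hist3h2ba, from all 5 classes. With means of at least 1 FPKM in both fractions there were 6 calls, none of them an H2A gene. The only H2A call, Hist2h2ac, was listed at 0 in every mesenchymal control. In these bulk samples, fewer cells in S phase and less histone RNA per cell cannot be told apart. The median log2 fold change was -1.20 over the 26 members and 0.08 over all genes tested, on the log2(FPKM + 1) scale; with median-ratio scaling of the libraries these became -1.30 and -0.04. Fold changes were below 0 for 24 members, beside 45.8% of all genes.

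The called members lie in the Hist1, Hist2 and Hist3 clusters (GENCODE M21, GRCm38). In the Hist1 cluster Hist1h4d is at chr13:23581598-23582735 (plus strand), Hist1h1e at chr13:23620629-23622558 (minus), Hist1h2bc at chr13:23684199-23692908 (plus), Hist1h1c at chr13:23738808-23740367 (plus) and Hist1h1d at chr13:23553262-23560686 (plus). In the Hist2 cluster Hist2h2ac at chr3:96220361-96220880 (minus) lies next to Hist2h2be at chr3:96221119-96223738 (plus), and Hist2h3c1 is at chr3:96246685-96248509 (plus). Hist3h2ba is at chr11:58948920-58949533 (plus).

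A member that passed the filter of 1 FPKM only through its high fraction had to differ, so all members were also counted without a filter. The mean of the mesenchymal controls was lower for 49 of the 70, higher for 2 and listed at 0 in both fractions for 19. Of the 19 members with a mean of at least 1 FPKM in both fractions, 17 were lower and 2 higher in the mesenchymal fraction. In that set 6 members were called lower, beside 6.09% of the 13404 genes with both means at least 1. The groups did not overlap for 14 of the 26 members tested, all lower, where 17.4% of all genes tested were lower without overlap. Among these members, Hist1h1d, Hist1h2be, Hist1h3d, Hist2h2ac, Hist2h4 and Hist3h2ba had a mesenchymal mean under 1 FPKM and passed only through the other fraction. For them the lack of overlap says no more than their values.

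Hist2h2be, an H2B gene whose annotated transcript extends well past the coding sequence, had 2.21, 3.12 and 3.80 FPKM in mesenchymal controls. The non-mesenchymal controls had 8.83, 9.13 and 11.9, and the groups did not overlap. The log2 fold change was -1.45 ± 0.24 (SE, adjusted p = 0.0081), a 3.27-fold higher mean in non-mesenchymal cells. Hist1h2bc, which is spliced in the annotation, had 3.09, 5.20 and 7.11 FPKM against 16.1, 19.2 and 19.3 (log2 fold change -1.70 ± 0.29, SE). Every non-mesenchymal control lay above every mesenchymal one (adjusted p = 0.0089).

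Among the linker histones 3 were called, of which Hist1h1e and Hist1h1c are abundant and Hist1h1d is not. Hist1h1e was 14.2, 14.7 and 19.7 FPKM in mesenchymal and 36.3, 36.6 and 67.8 in non-mesenchymal controls (log2 fold change -1.43 ± 0.30, SE, adjusted p = 0.0193). Hist1h1c was 4.47, 5.31 and 5.76 against 11.5, 13.97 and 24.2 FPKM, with a log2 fold change of -1.45 ± 0.30. Hist1h1d fell by 1.42 on the log2 scale, from a mean of 2.70 to 0.374 FPKM. The groups did not overlap for any of these linker genes. Hist1h4d fell by 1.78 ± 0.45 (SE, adjusted p = 0.0380), and its mean was 3.54-fold higher in non-mesenchymal controls. Hist2h3c1, the leading H3 gene, had 0.382, 1.18 and 1.98 FPKM against 3.23, 5.18 and 5.72 (adjusted p = 0.0410).

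A pair of the 9 members was listed at 0 in all 3 mesenchymal controls, so no fold is given. Hist2h2ac, an H2A gene, had 3.37, 4.61 and 8.83 FPKM in non-mesenchymal controls, and Hist3h2ba, an H2B gene of the Hist3 cluster, had 1.30, 2.42 and 3.09. Both passed the filter only through the non-mesenchymal fraction, as did Hist1h1d, so their calls say no more than these values. The highest fold changes belonged to Hist1h2bn (0.45 ± 0.75, SE), Hist2h2bb (0.24 ± 0.88) and Hist1h2bg (-0.27 ± 0.58), none of which passed the test. The number of calls ranged from 5 to 11 when 1 library was left out, and was 5 without mesenchymal control 3. The share of all genes called in these fits is not given here, and whether the range is particular to members was not tested. Hist1h2bc and Hist2h2be were called in every such fit. Hist1h1e was called in 4 of 6 of these fits, and lost without mesenchymal control 2 or 3. Hist1h1c was called in 3 of 6, and lost without any 1 of the 3 mesenchymal controls. Hist1h4d was called in 1 of 6 (kept without non-mesenchymal control 1). Hist2h3c1 was also called in 1 of 6 (kept without mesenchymal control 2), and its call was lost with a pseudocount of 0.1 and with no filter on low values.

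In mutants the fractions were compared over other libraries, 4 against 4. Here 8 of the 27 members tested were lower in the mesenchymal fraction and none was higher, where 15.1% of all 16767 genes tested were lower and 13.5% higher, 28.6% in all. At an unadjusted p under 0.05 there were 13 members, beside 39.1% of all genes. The median was -1.19 over members and -0.03 over all genes, and 25 members were below 0, beside 51.6% of all genes. Without a filter, 48 members were lower, 4 higher and 18 listed at 0 in both fractions. All 17 members with means of at least 1 FPKM in both fractions were lower, and 4 of them were called, beside 11.3% of the 13401 genes with both means at least 1. The groups did not overlap for 8 of 27 members, all lower, where 16.6% of all genes tested were lower without overlap. Among these members, Hist1h1d, Hist1h2be, Hist1h2bg, Hist2h3c1 and Hist3h2ba had a mesenchymal mean under 1 FPKM and passed the filter only through the other fraction.

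Of the 9 calls in controls and the 8 in mutants, 6 were shared, which is 66.7% of the first list and 75% of the second: Hist1h1c, Hist1h1d, Hist1h2bc, Hist2h2be, Hist2h3c1 and Hist3h2ba. Over all genes, 1373 were called lower in both, which is 79.9% of the calls in controls and 54.1% of those in mutants. Of the 6 members, 3 had means of at least 1 FPKM in both fractions of both genotypes, namely Hist1h1c, Hist1h2bc and Hist2h2be. With 1 library left out, Hist2h2be was called in every fit of both genotypes, whereas Hist1h1c was called in 3 of 6 fits in controls and 5 of 8 in mutants, and Hist1h2bc in 6 of 6 and 4 of 8. The control call of Hist1h2bc was lost with all 4 H19DMD groups in a fit (limma adjusted p = 0.059). Of the 24 members tested in both, 23 had a fold change below 0 in both, beside 37.5% of the 15715 genes tested in both, but several of them passed the filter only through the non-mesenchymal fraction. Of the 14 members with means of at least 1 FPKM in all 4 groups, 14 were below 0 in both. The share of all genes below 0 with the same limit is not given, here or for each genotype alone. Hist2h2be had 0.525, 1.09, 1.96 and 4.86 FPKM in mesenchymal mutants and 8.81, 10.2, 11.5 and 18 in non-mesenchymal mutants. It fell by 2.22 ± 0.42 (SE, adjusted p = 0.0053), with no overlap and an exact permutation p of 0.0286, the smallest that 4 against 4 libraries allow. Hist1h1c had 3.60, 5.003, 9.26 and 10.6 against 13.01, 15.7, 27.9 and 28.5 FPKM (log2 fold change -1.48 ± 0.38, SE). It kept the groups apart in mutants as it did in controls.

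Hist1h2bc had 0, 1.61, 3.53 and 7.999 FPKM in mesenchymal mutants against 9.22, 16.4, 17.7 and 20.2, and Hist2h3c1 had 0, 0.826, 0.896 and 1.64 against 3.27, 3.58, 3.69 and 4.36. Hist3h2ba was again listed at 0 in every mesenchymal library, with 0.888, 1.40, 1.52 and 4.85 FPKM in the other fraction. Hist1h2bl and Hist1h2be, both H2B genes, were called in mutants and not in controls. With 1 library left out, Hist1h2bl was called in 3 of 8 fits and Hist1h2be in 1 of 8 (kept without mesenchymal mutant 1), and both calls were lost with a pseudocount of 0.1. That of Hist1h2bl was also lost with no filter on low values. Hist1h2be had a mean of 0.790 FPKM in mesenchymal and 2.56 in non-mesenchymal mutants (log2 fold change -1.08 ± 0.33, SE, adjusted p = 0.0423), so it passed the filter only through the non-mesenchymal fraction. Hist1h2bl was listed at 0 in 2 of 4 mesenchymal mutants and had 4.13 and 8.01 FPKM in the others, against 6.72, 14.3, 20.8 and 23.6, so its groups overlapped. Of its 50-base windows 82.8% occur in another member. That the difference between fractions depends on genotype was not shown for either gene, since the interaction was -1.37 ± 1.17 (SE, limma adjusted p = 0.874) for Hist1h2bl and -0.49 ± 0.46 (adjusted p = 0.885) for Hist1h2be. The highest fold changes were 0.16 ± 0.78 for Hist1h4k and 0.03 ± 0.72 for Hist1h2bn, and Hist1h4c had -0.11 ± 0.84.

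With 1 library left out, the number of calls in mutants ranged from 3 to 11, again without a share of all genes beside it. It fell from 8 to 3 without non-mesenchymal mutant 1 and to 4 without non-mesenchymal mutant 4. It was 5 without mesenchymal mutant 3, non-mesenchymal mutant 2 or non-mesenchymal mutant 3, and Hist2h2be was called in every such fit. Hist1h1d, Hist2h3c1 and Hist3h2ba, like Hist1h2be, had a mean under 1 FPKM in mesenchymal mutants and passed the filter only through the other fraction, so their calls say no more than their values. Hist1h2bc lost its call without mesenchymal mutant 3 or without non-mesenchymal mutant 1, 3 or 4, and also with a pseudocount of 0.1.

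**Figure D4:**
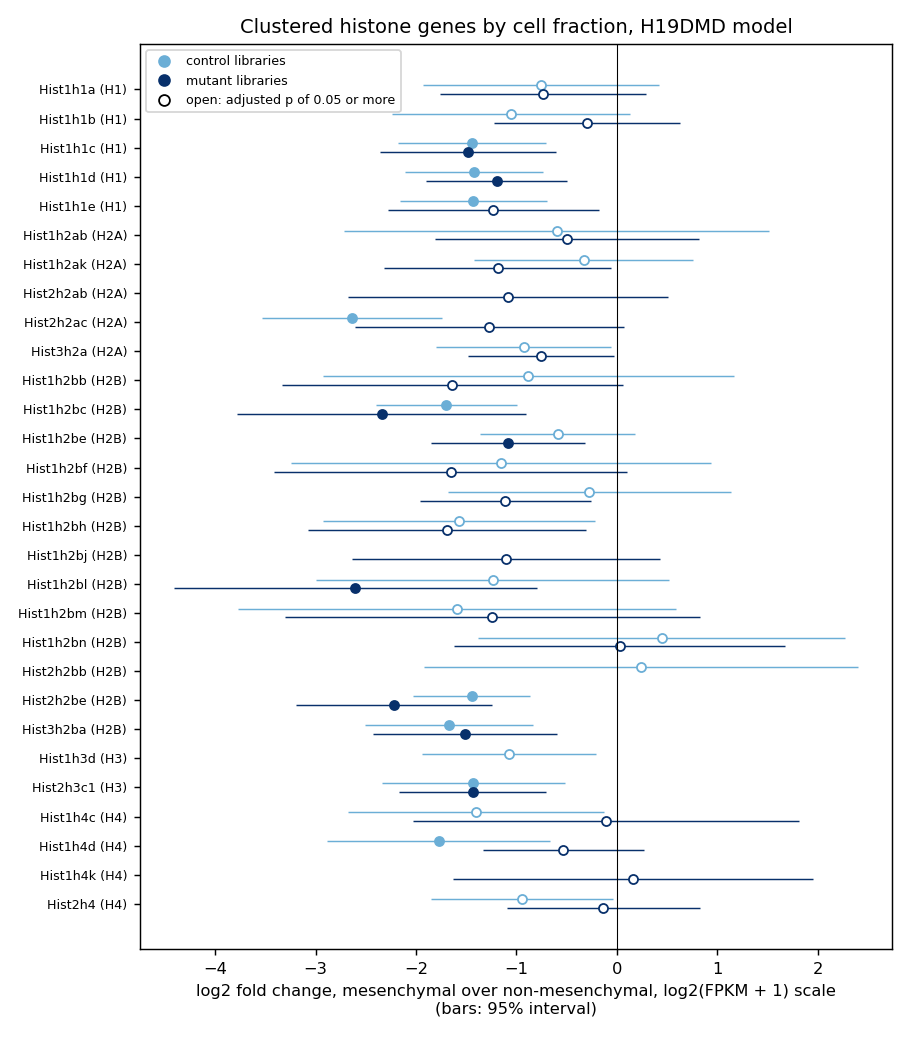
Log2 fold change of each tested member, mesenchymal over non-mesenchymal, with its 95% interval, in control libraries (light) and mutant libraries (dark) of the H19DMD model; filled points have an adjusted p under 0.05. Points left of 0 are lower in the mesenchymal fraction, as for 24 of 26 members in controls and 25 of 27 in mutants.

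The deletion of H19DMD was compared with its controls within each fraction. In mesenchymal cells 0 of the 17 members tested passed the adjusted p of 0.05 in limma, and 1 had an unadjusted p under 0.05, beside 0.0694% and 4.76% of all 15856 genes tested. That member was Hist1h4d, with a log2 fold change of 0.94 ± 0.38 (SE, p = 0.0431, adjusted p = 0.927) and an exact permutation p of 0.0857. Its mutant values started at 38.6 FPKM and its highest control was 40.3, so the groups overlapped by 1 library. The median fold change was -0.29 over members and -0.07 over all genes, with 11 members below 0 and 6 above, where 57.3% of all genes were below 0. Over all 70 members without a filter, more were higher than lower: the mutant mean was higher for 23, lower for 17 and 0 in both groups for 30. Of the 15 members with both means at least 1 FPKM, 8 were lower and 7 higher. The groups overlapped for all 17 members tested, where 5.39% of all genes did not overlap. With median-ratio scaling 9 were below 0 and 8 above.

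Class sums overlapped between mesenchymal controls and mutants for H1, H2A, H2B and H3, but not for H4. The H4 sum was 17.5, 37.7 and 41.9 FPKM in mesenchymal controls and 44.5, 57.6, 57.6 and 95.5 in mutants, without overlap. Hist1h4d held 94.7% of that sum in mesenchymal controls and 92.2% in mutants, and Hist1h4d itself overlapped between them. The share of H4 in the summed level was 17.3, 26.4 and 27.2% in controls and 35.3, 37.5, 38.4 and 64.6% in mutants. In the non-mesenchymal fraction the same share was 25.4 to 33.6% in controls and 25.4 to 30.0% in mutants. The sum of the other classes was 83.9 to 117 FPKM in mesenchymal controls and 31.7 to 159.5 in mutants, which overlap. The S phase and mitosis sums did not overlap either, and they were lower in the mutants: 382 to 413 FPKM of S phase genes in controls and 294 to 369 in mutants, and 326 to 343 FPKM of mitosis genes in controls and 221 to 310 in mutants. These sums are descriptions with no test, and the part of the S phase and mitosis genes in the histone values was not tested. The lowest fold changes were those of Hist1h2bl (-1.43 ± 0.93, SE), Hist1h2bn (-1.16 ± 0.75) and Hist2h2bb (-0.97 ± 0.73), and the highest after Hist1h4d were Hist1h2bh (0.45 ± 0.73) and Hist1h4c (0.44 ± 0.77).

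In non-mesenchymal cells of the H19DMD model 0 of 31 members were called and 0 had an unadjusted p under 0.05, beside 0.0677% and 5.35% of all 16239 genes. The median was -0.23 over members and 0.05 over all genes, and 21 members were below 0, beside 43.9% of all genes. Over all 70 members the mutant mean was higher for 17, lower for 37 and 0 in both groups for 16. Hist1h2be, an H2B gene, was the 1 tested member whose groups did not overlap, where 5.68% of all genes did not. It had 1.35, 1.67 and 1.88 FPKM in controls and 2.26, 2.49, 2.53 and 2.97 in mutants (log2 fold change 0.44 ± 0.23, SE, adjusted p = 0.894). The largest fold change was that of Hist1h2bj, 1.48 ± 0.67, with 0, 0 and 3.05 FPKM in controls and 1.12, 3.04, 3.98 and 8.11 in mutants. Hist1h2bh had 0.57 ± 0.46. The lowest were Hist1h4c (-0.86 ± 0.77), Hist2h2bb (-0.80 ± 0.77) and the linker histone Hist1h1b (-0.79 ± 0.48), whose groups overlapped. The 7 erythroid markers tested all had fold changes above 0 in this comparison, with a median of 1.70 and none called; their sum was 123 to 442 FPKM in controls and 154 to 1717 in mutants, and their part in the histone values was not tested.

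The interaction asked whether the effect of the deletion differed between fractions. None of 27 members passed the adjusted p, and 0 had an unadjusted p under 0.05, beside 0.0117% and 6.35% of all 17105 genes. Hist1h4d had an interaction of 1.25 ± 0.59 (SE, limma adjusted p = 0.793), with a 95% interval from -0.04 to 2.53. The members at the ends of the range were Hist2h2ac (1.37 ± 0.77), Hist1h4c (1.30 ± 1.13), Hist1h2bl (-1.37 ± 1.17), Hist1h2ak (-0.86 ± 0.72) and Hist1h2bg (-0.84 ± 0.67). The median over all genes was -0.11 and became 0.00 with median-ratio scaling, and that over members went from -0.01 to 0.09.

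In the Igf2 model, non-mesenchymal cells of mutants and controls were compared to ask how the cells around an Igf2-deleted mesenchyme differ. Here 0 of 45 members passed the adjusted p in limma and 1 had an unadjusted p under 0.05, beside 0.0631% and 5.28% of all 17441 genes tested. The groups overlapped for all 45 members tested, where 6.02% of all genes did not overlap. The median fold change was 0.20 over members and -0.03 over all genes, with 30 members above 0 and 15 below, where 47.1% of all genes were above 0. Over all 70 members without a filter, the mutant mean was higher for 32, lower for 32 and 0 in both for 6. The member under 0.05 was the non-coding Hist2h2bb, with 2.62, 5.33, 8.52 and 11.02 FPKM in controls and 1.00, 1.83 and 3.61 in mutants. Its log2 fold change was -1.27 ± 0.49 (SE, limma p = 0.0347, adjusted p = 0.919), the exact permutation p was 0.0857, and the groups overlapped by 1 library.

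The extremes of that comparison were mostly low genes. Hist1h4k (-1.48 ± 0.74, SE) and Hist1h2ag (-0.89 ± 0.59) were listed at 0 in 2 of 3 mutants. Hist1h2bh had 3.67, 6.37, 13.4 and 18 FPKM in controls and 15.4, 15.9 and 22.9 in mutants (0.93 ± 0.49). Hist1h3a had 0.83 ± 0.49. Hist1h2bm, the leading H2B gene, had 25.8, 31.1, 70.3 and 89.5 against 67.4, 73.5 and 86.7 FPKM (0.66 ± 0.45). Control values of several abundant members were spread widely, with the highest value in control 1. That library also had the highest S phase sum of the controls (716 FPKM, where the others had 502 to 631) and the highest erythroid sum (4174 FPKM, where the others had 727 to 1723). Acinar markers moved in the same comparison: 7 of 8 had a fold change above 0, with a median of 1.13 and none called. Their sum was 28570 to 41470 FPKM in controls and 84250 to 95940 in mutants, and their part in the histone values was not tested.

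Other genes of the pathway were taken from fixed lists, whose counts between fractions stand beside the 10.3% of all genes that were lower in controls and the 15.1% that were lower in mutants. The 16 genes of histone mRNA expression include Slbp, which binds the stem-loop, and Npat, which activates histone transcription. In controls 0 of 16 were called between fractions, with a median of -0.22, and in mutants 2 were lower (12.5% of the list). Slbp had a mean of 52.3 FPKM in mesenchymal and 47.9 in non-mesenchymal controls (log2 fold change 0.12 ± 0.38, SE), and Npat had 11.8 and 10.5 (0.07 ± 0.43). None of the 16 was called in the mutant comparisons of either model. Among 12 histone chaperones matched, 0 were called between fractions in controls and 1 was lower in mutants.

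Of the replacement histones, 2 of the 10 tested were lower in the mesenchymal fraction of controls, with a median of -0.51; in mutants 2 were lower and 1 higher, with a median of -0.78. H2afz, the H2A.Z gene, was 332 FPKM in mesenchymal and 816 in non-mesenchymal controls, a log2 fold change of -1.27 ± 0.29 (SE, adjusted p = 0.0260). In mutants it was -0.79 ± 0.33 (adjusted p = 0.117). H3f3b, an H3.3 gene, had -0.61 ± 0.25 in controls (adjusted p = 0.140) and -1.07 ± 0.19 in mutants (adjusted p = 0.0040). H1f0, a replacement linker histone, had -0.51 ± 0.24 in controls and -0.77 ± 0.21 in mutants (adjusted p = 0.0276). The 11 replacement genes summed to 738 FPKM in mesenchymal and 1387 in non-mesenchymal controls, where the clustered members summed to 133 and 393.

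Genes of DNA replication and mitosis were read beside the histone genes, and the difference between the lists was not tested. Of 23 S phase genes tested, 0 were called in controls (median -0.23) and 3 were lower in mutants (median -0.44), a smaller share than the 15.1% of all genes. Of 18 mitosis genes, 0 were called in controls (median -0.21) and 4 were lower in mutants (median -0.55), or 22.2%. Pcna, the replication clamp, had -0.33 ± 0.18 in controls and -0.47 ± 0.16 in mutants (adjusted p = 0.0566). Mki67, a proliferation marker, had -0.37 ± 0.18 and -0.73 ± 0.24 (adjusted p = 0.0521). The summed level of the 70 members divided by that of the 24 S phase genes was 0.246 to 0.406 in mesenchymal and 0.632 to 1.09 in non-mesenchymal controls. In mutants it was 0.242 to 0.754 and 0.515 to 1.23, which overlap. In the Igf2 model it was 1.35 to 1.80 in controls and 1.76 to 2.39 in mutants. In mesenchymal cells the H19DMD mutants were below their controls for all 18 mitosis genes, with a median of -0.43, and for 20 of 23 S phase genes, none of them called, where 57.3% of all genes were below 0.

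**Figure D5:**
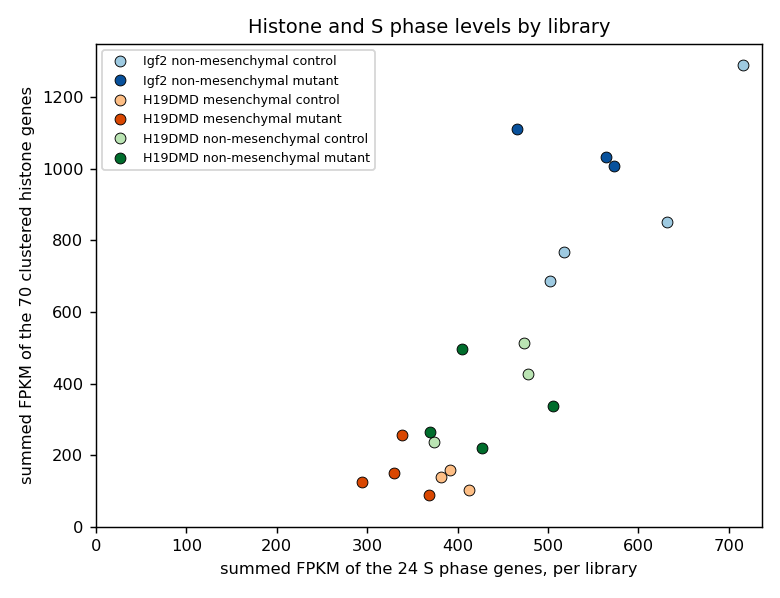
Summed FPKM of the 70 clustered histone genes (vertical) against that of the 24 S phase genes (horizontal), 1 point per library, coloured by group; the 2 models come from separately normalised tables. Mesenchymal libraries lie at 89.3 to 255 FPKM of histone genes and the libraries of the Igf2 model at 685.6 to 1288.

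Cell type markers moved with the fractions as well, and their part in the histone differences was not tested. In controls, the summed level of 9 mesenchymal markers was 6061 to 7117 FPKM in the mesenchymal and 169 to 205 in the non-mesenchymal fraction. The leukocyte sum was 16.3 to 30.7 against 267 to 535 FPKM, with 5 of 6 genes called lower, and the erythroid sum 16.9 to 18.7 against 123 to 442, with 4 of 6 called lower. The ductal sum was 34.8 to 80.2 against 876 to 1392 FPKM, with 4 of 6 called lower. Endothelial markers were higher in the mesenchymal fraction for 2 of 5 genes. At 0 in all 3 mesenchymal controls were 2 of 8 acinar, 1 of 7 endocrine, 1 of 6 ductal and 1 of 7 erythroid markers, and none of the leukocyte or endothelial ones.

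Members were last grouped by 3′ end, since transcripts that run past the stem-loop can be polyadenylated, and the grouping depended on which end was used. By the annotated transcript, 23 members ran more than 100 nt past the stem-loop and held 47.1 to 62.7% of the summed level in the 6 groups. By the span that the tables list, 19 members did and held 8.61 to 14.8%, an alternative chosen after seeing the data. Hist1h4d and Hist1h1e, the highest members, are among the 5 that moved from the first set to the set ending at the stem-loop. In controls, non-mesenchymal sums were 3.57-fold the mesenchymal ones for members ending at the stem-loop and 3.40-fold for those running past it by annotation, and 3.42-fold and 3.52-fold by listed span. In mutants the same ratios were 2.56 and 1.90 by annotation, and 1.86 and 2.94 by listed span, so their order depended on the grouping. For the 24 members with no match the ratios were 2.19 in controls and 2.46 in mutants. The FPKM tables hold no read positions, so how much of a member's signal came from a longer form was not analysed here.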

How the data were processed

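Per the labels' protocols, total RNA from sorted cells was amplified with the Ovation RNA-seq V2 system and sequenced as single 50-base reads. The submitters' processing notes name TopHat2 2.0.8, Cufflinks 2.2.1 and GRCm38, without parameters. The authors deposited 1 FPKM table per model, per the file headers. Of 31 samples, 21 have values here; 8 mesenchymal columns of the Igf2 table were empty, and 1 control of each H19DMD fraction was not analysed here. No column of another sample was used (0).

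Here, log2(FPKM + 1) was tested per table with limma 3.58.1 in R 4.3.3 (lmFit, eBayes with a variance trend, two-sided), leaving out genes whose mean over the compared libraries was under 1 FPKM. p-values were adjusted by Benjamini-Hochberg over all genes tested, at 0.05. Single genes also had exact two-sided permutation tests. With 3 against 3 libraries the smallest p is 0.1, and with 4 against 3 it is 0.0286. The fits were also run on simulated data, and no result of that is given here. Fold changes understate low genes. Members and gene lists were chosen with earlier results of these data known.

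Named members were those called (up to 10 per comparison), the 3 highest and 3 lowest fold changes per comparison, the 5 highest per table, the highest of each class and a fixed set (Hist1h1a to Hist1h1e, Hist1h1t, Hist1h2bc, Hist2h2be, Hist3h2a and Hist4h4); members whose sequences are shown were chosen apart. Of the members, 63 matched GENCODE M21 by identifier and 7 by symbol. None of the 8 genes of a list of other non-polyadenylated RNAs was matched by symbol, so that list gave no value. Same-numbered libraries correlated at -0.0506 to 0.0674, so numbers were not treated as pairs. Alternatives were another pseudocount, no filter, median-ratio scaling, a replicate block, transcripts of at least 200 nt, no variance trend, all 4 H19DMD groups in a fit, each library left out and, added after seeing the data, listed spans in place of annotated 3′ ends.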

Additional observations from a re-analysis of the deposited data

Results flagged for a closer look

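In groups of 4 libraries, 78 checks looked for a value far from the rest, and 4 met the criterion; chance alone gives about 1 in 20. Hist1h1b was 109 FPKM in 1 Igf2 non-mesenchymal control, where the next value was 51.9. In the same library Hist1h2bg was 8.48 FPKM, with 3.35 next. In the non-mesenchymal mutants of the H19DMD model, 1 library had 7.23 FPKM of Hist1h4c, where the next was 1.22 and the others were listed at 0. That library also had the highest Hist3h2ba, 4.85 FPKM against 1.52.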

How the results depend on the processing

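The counts of called members kept within 1.5 times of the reported ones with median-ratio scaling, no filter, no variance trend, transcripts of at least 200 nt and all 4 H19DMD groups in a fit. In the control fraction comparison the 9 calls became 4 with the replicate block, and 5 to 11 with 1 library left out. In the mutant fraction comparison the 8 calls became 5 with a pseudocount of 0.1, 5 with the replicate block and 3 to 11 with 1 library left out. The block pairs libraries by number, and the sources used here do not say whether same-numbered libraries came from the same animal.

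Directions changed only for members that were not called. The log2 fold change of Hist1h2bn between mutant fractions became -0.52 with a pseudocount of 0.1. With 1 library left out, values ran from -0.57 to 0.21 for Hist1h2bg, -0.25 to 1.19 for Hist1h2bn and -0.43 to 1.03 for Hist2h2bb between control fractions. Between mutant fractions they ran from -0.19 to 0.25 for Hist1h2bn, -0.63 to 0.56 for Hist1h4c and -0.0084 to 0.39 for Hist1h4k. For Hist1h2bh in mesenchymal mutants against controls they ran from -0.041 to 0.91. The cause was not tested.

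Without the highest member of each class the summed level was 370.2 and 399 FPKM in Igf2 controls and mutants. It was 68.8 and 63.3 FPKM in mesenchymal controls and mutants, and 195 and 169 FPKM in non-mesenchymal controls and mutants. FPKM holds no counts, so the counting error of low members is unknown.

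The share of the summed level in members that run past the stem-loop by annotation was 51.6 and 54.1% in Igf2 controls and mutants, 47.1 and 62.7% in mesenchymal and 54.3 and 56.2% in non-mesenchymal controls and mutants. With listed spans, chosen after seeing the data, it was 10.7 and 8.61%, 10.6 and 10.7%, and 12.6 and 14.8%. The members that changed set include Hist1h4d and Hist1h1e, whose listed spans are shorter than their annotated transcripts.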
